A study of Mus musculus with 20 samples.

Results

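This account covers the enzymes of glycolysis, the tricarboxylic acid (TCA) cycle and the pentose phosphate pathway in mouse oocytes and preimplantation embryos. It starts from 41 listed genes: 14 of glycolysis, 6 of pyruvate and lactate metabolism, 11 of the TCA cycle, 5 of the pentose phosphate pathway and 5 enzymes of side reactions (Aco1, Idh1, Mdh1, Me1 and Pck2). The members were found by gene symbol in the array's annotation, among 12394 genes in all. Of the 41 genes, 38 carried at least 1 probe set, a group of short probes that reads 1 transcript. The other 3, Gpi1, Eno1 and G6pdx, are not listed under those symbols and are not analysed here. Gapdh was read by the array's control probe sets, which stayed outside the fit, and by 2 probe sets that also name other genes and were not assigned to it. Neither probe set of Pck2 passed the filter on low intensities, so 36 genes were tested.

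Glycolysis converts glucose to pyruvate in the cytosol, and lactate dehydrogenase interconverts pyruvate and lactate. Pyruvate dehydrogenase feeds pyruvate as acetyl-CoA into the mitochondrial TCA cycle, which reduces NAD for respiration, while the pentose phosphate pathway makes NADPH and the ribose of nucleotides. Mouse oocytes and early cleavage embryos are known to live mainly on pyruvate and lactate, and to take up and use much more glucose by the blastocyst stage.

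The study compared 5 stages: oocytes, 1-cell, 2-cell and 8-cell embryos, and blastocysts, with 4 arrays per stage and 20 in all. No genotype, strain, treatment, age or number of pooled embryos is given in the labels, and nothing says whether the 4 arrays of a stage came from separate collections, so p-values measure only the spread between these arrays, which may be technical. Total RNA went through 2 rounds of in vitro transcription before hybridization to the MOE430A array, which reads transcripts near their 3' ends. The values are linear probe-set intensities scaled by the authors, so a level is a share of the RNA on its array, and in these bulk samples fewer cells of a type and less RNA per cell cannot be told apart.

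The stage labels were checked against marker genes. The summed intensity of 7 oocyte genes such as Gdf9 and Zp3 was 29060 to 33236 on the oocyte arrays and 180 to 242 on the blastocyst arrays. The sum of 7 genes of trophectoderm and inner cell mass went the other way, from 489 to 612 in oocytes to 11128 to 13016 in blastocysts. Most of the blastocyst sum came from Krt8 (4102 to 4661) and Krt18 (4573 to 6242). Tfap2c was highest at the 8-cell stage, at 693 to 1189 against 285 to 513 in the blastocyst. Pou5f1 (556 to 755 and 507 to 740) and Nanog (234 to 392 and 320 to 857) overlapped between these 2 stages. The sum of 4 genes of 2-cell activation was highest at the 2-cell stage (2607 to 4212). Of these 4, Zfp352, Tdpoz1 and Tcstv3 were highest there, whereas Eif1a read 224 to 312 at the 2-cell stage and 725 to 1225 at the 8-cell stage. The sum of 9 cumulus genes stayed between 186 and 519 on all 20 arrays, and that of 7 sperm genes between 76.0 and 248. The array of 8-cell replicate 2 stood apart: its sum of 5 oviduct and blood genes reached 3207, nearly all of it Ovgp1, an oviduct secretory protein, at 194, 3105, 113 and 46.5 on the 4 arrays of that stage. Ovgp1 was also higher at the 2-cell stage, at 765, 614, 381 and 219.6, than in the oocyte (18.9 to 79) and the 1-cell embryo (54 to 112). It moves with both comparisons of the 2-cell stage, and its part in them was not tested. Without that array 16 members were called higher and 12 lower from the 2-cell to the 8-cell stage, and 22 higher and 3 lower from the 8-cell stage to the blastocyst, against 17, 11, 21 and 3 with it.

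Transcript levels differed among the stages for 33 of the 36 genes in limma's F-test at an adjusted p under 0.05, against 82.0% of all 10257 genes tested. The 3 genes not called were Pfkl (adjusted p = 0.119), Pfkm (adjusted p = 0.0586) and Aldoc (adjusted p = 0.112), all of early glycolysis. By mean intensity 16 genes peaked in the blastocyst, 8 in the oocyte, 6 in 8-cell embryos, 5 in 1-cell embryos and 1, Ldha, in 2-cell embryos. The TCA cycle had 7 of 11 genes highest in the blastocyst. The 8-cell stage held the lowest level of 12 genes, 5 of them glycolytic. Highest and lowest stages were not counted over all genes, so these counts do not show whether the pattern is particular to the members. Among the 36 genes, 27 were above the filter on all 20 arrays, while 9 fell below it on some, so their passing depended on the stages where they are high and the counts are descriptions.

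**Figure D1:**
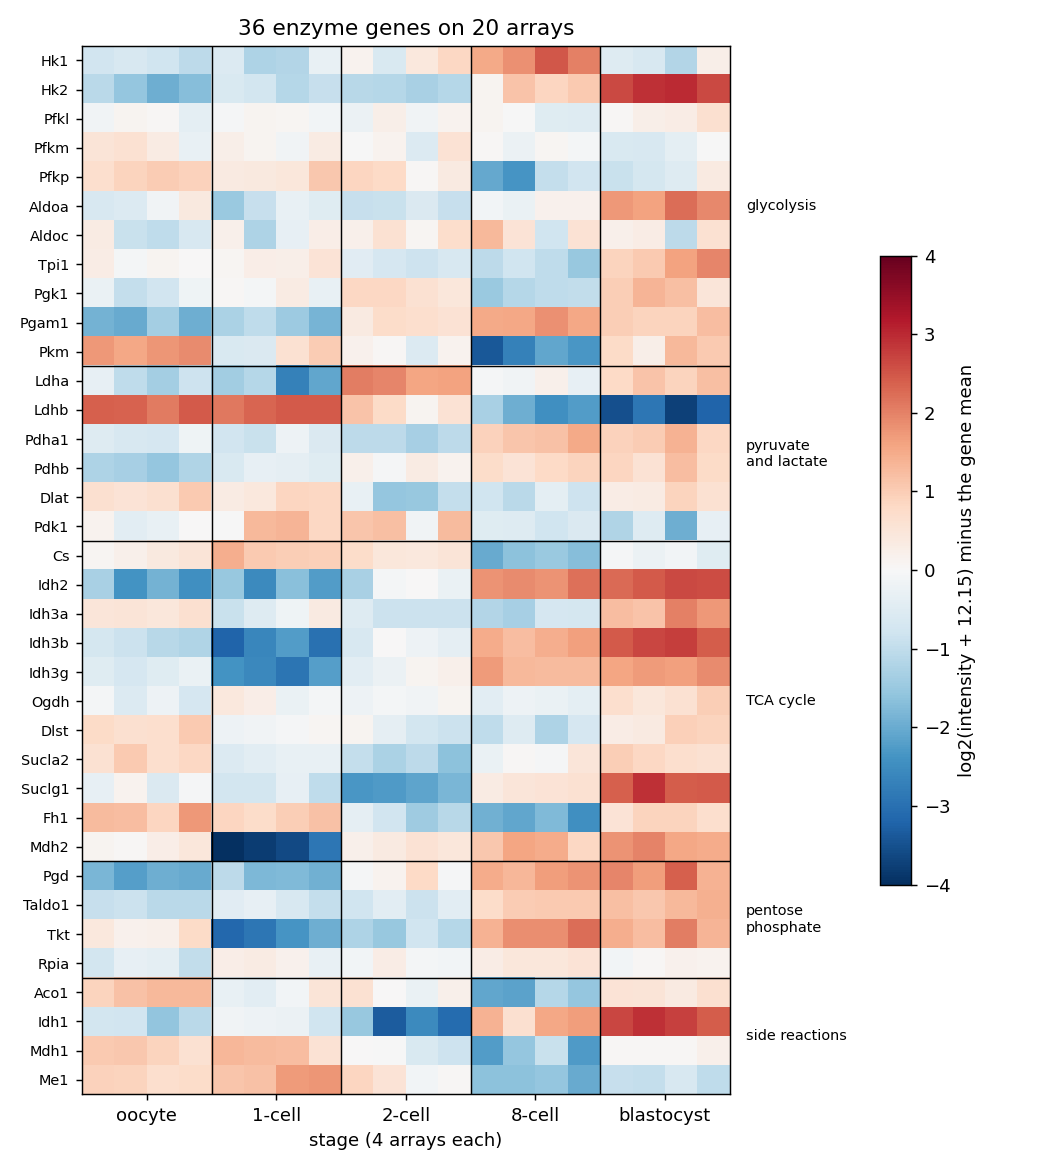
Each row is 1 of the 36 tested genes, ordered by pathway, and each column 1 of the 20 arrays, grouped by stage; the colour is log2(intensity + 12.15) minus the mean of that gene over all arrays. Ldhb runs from red in the oocyte to dark blue in the blastocyst, Mdh2, Tkt, Idh3b and Idh3g are blue in the 1-cell embryos, and most TCA genes are red in the blastocyst.

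The direction of change differed by transition and by pathway. From the oocyte to the 1-cell embryo 7 of 36 genes were called higher and 11 lower, against 15.2% and 16.6% of all genes, with a median log2 change of 0.01 beside 0.09 over all genes. Of the 11 TCA genes 7 fell and 1, Cs, rose (median -0.83), whereas 8 of 11 glycolytic genes were not called (median 0.09). Of the 6 pyruvate and lactate genes 2 rose and 1 fell (median -0.04). No rise at this transition held when the arrays were scaled to the spiked hybridization controls instead, which left 0 genes higher and 21 lower.

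From the 1-cell to the 2-cell embryo, when the embryonic genome of the mouse is activated, 11 genes rose and 11 fell, against 22.0% higher and 22.7% lower over all genes. The medians were -0.08 over the members and -0.07 over all genes. The TCA cycle was divided, with 4 genes higher and 4 lower, and 3 of the 4 tested side-reaction genes fell (median -1.27). Of the 6 pyruvate and lactate genes 2 rose and 3 fell (median -0.26). Scaling to the hybridization controls left 11 genes higher and 7 lower.

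Between the 2-cell and the 8-cell stage 17 genes rose and 11 fell, with 22.2% and 25.7% of all genes called and a median of 0.15 over the members. Scaled to the hybridization controls, 12 members were higher and 13 lower, with a median of -0.17, so which direction held the majority depends on the scaling. All 4 tested pentose phosphate genes rose (median 1.47), although Rpia turned to -0.090 under that scaling and its call was lost without any 1 of 6 arrays (adjusted p from 0.0543 to 0.0739). In the TCA cycle 6 of 11 rose and 2 fell (median 0.84, or 0.29 under that scaling), glycolysis had 4 higher and 3 lower (median -0.09), and the side reactions had 1 higher and 3 lower. Of the 6 pyruvate and lactate genes 2 rose and 3 fell (median -0.58).

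From the 8-cell embryo to the blastocyst 21 genes rose and 3 fell. Over all genes 20% were called higher and 26.4% lower, and the median log2 change was 0.92 for the members beside -0.22 for all genes. Scaled to the hybridization controls, 31 members were higher and 1 lower with a median of 1.86, but the background turned too: the median of all genes was 0.65, and 95.6% of the genes called were higher. The TCA cycle had 8 of 11 genes higher and 0 lower (median 1.12), glycolysis 7 of 11 higher and 2 lower (median 1.10), and all 4 tested side-reaction genes rose (median 1.60). These 3 medians were 2.19, 1.78 and 2.42 under control scaling. None of the 4 pentose phosphate genes was called in either direction (median -0.02, but 1.06 under that scaling). The median of the 6 pyruvate and lactate genes was also near zero, at -0.009 (1.07 under that scaling), with 2 higher and 1 lower. The 3 genes that fell were Hk1, Pgam1 and Ldhb, and of these Hk1 alone kept its call under that scaling, while Ldhb was at -0.34 (adjusted p = 0.373) and Pgam1 turned to 0.45.

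Over the whole course, from oocyte to blastocyst, 20 genes were higher and 10 lower, against 26.2% and 33.6% of all genes, with a median log2 difference of 1.03 beside -0.20. All 4 pentose phosphate genes and 7 of 11 TCA genes were higher. Glycolysis had 5 higher and 3 lower, and 3 of 4 side-reaction genes were lower. Of the 6 pyruvate and lactate genes 3 were higher and 2 lower (median 0.68). The consecutive transitions and this comparison share arrays, so they are not independent of each other.

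**Figure D2:**
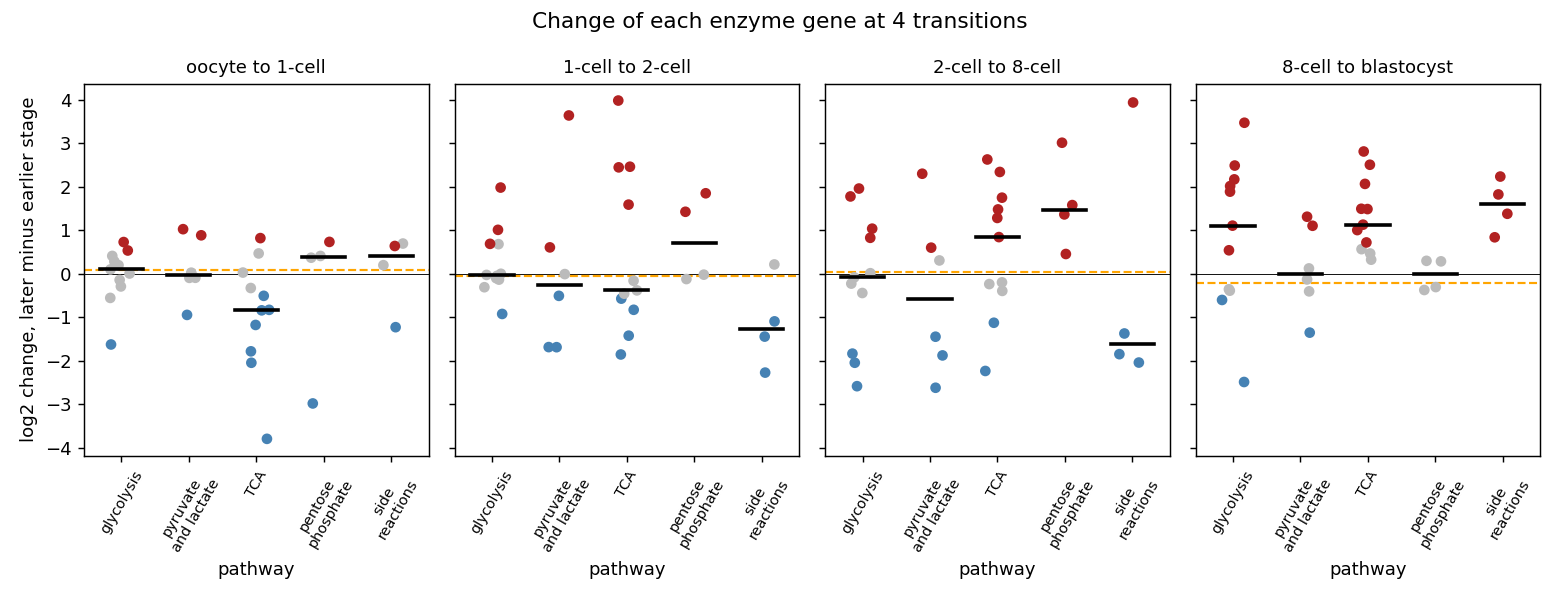
Each point is 1 tested gene and its log2 change (later minus earlier stage) at 4 transitions, by pathway; red points are called higher, blue lower and grey neither at an adjusted p under 0.05, the black bar is the median of the pathway and the dashed line the median of all 10257 genes. At the last transition the medians of glycolysis, the TCA cycle and the side reactions lie at 1.10, 1.12 and 1.60. Those of the pentose phosphate pathway and of pyruvate and lactate metabolism lie at -0.02 and -0.009.

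Lactate dehydrogenase is a tetramer of A and B subunits, encoded by Ldha and Ldhb, and the B form is the one known to dominate in the mouse egg. Ldhb intensities were 6937, 6844, 5685 and 7301 on the oocyte arrays and 5798, 6711, 7271 and 7356 on the 1-cell arrays. They were 2935, 2234, 1440.3 and 1982 at the 2-cell stage, 529, 336, 234 and 273 at the 8-cell stage and 106, 168, 87.7 and 132 in the blastocyst. From the 1-cell stage on no stage overlapped the next, and each step was lower than the last. The fall was 1.69 ± 0.22 (SE) on the log2 scale into the 2-cell stage (adjusted p = 2.68e-07). It fell by 2.63 ± 0.22 into the 8-cell stage (adjusted p = 8.82e-11) and by 1.36 ± 0.22 into the blastocyst (adjusted p = 1.49e-05), a step that was not called under scaling to the hybridization controls (-0.34, adjusted p = 0.373). The mean went from 6692 ± 699.8 (SD, n = 4) in the oocyte to 123 ± 34.9 in the blastocyst, and all 4 probe sets of Ldhb were called lower at these 3 transitions.

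Ldha moved differently. Its intensities were 62.6, 34.2, 24 and 39.9 in the oocyte, 23.1, 29.9, 2.2 and 9.8 in the 1-cell embryo and 370.5, 348, 267 and 276 in the 2-cell embryo. The 2-cell arrays lay above all others, with a rise of 3.63 ± 0.27 on the log2 scale (adjusted p = 6.6e-12). The values then were 78.3, 71.7, 95.1 and 61.6 at the 8-cell stage, a fall by 1.88 ± 0.27 (adjusted p = 1.14e-06), and 151, 195, 163 and 202 in the blastocyst, a rise of 1.10 ± 0.27 (adjusted p = 0.00168). Only 15 of the 20 arrays were above the filter for Ldha, so the size of its rise depends on the added constant.

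The promoters of both genes are shown because their transcripts moved in opposite directions at 2 transitions, and those of Pgk1 and Hk2 for comparison within glycolysis. They come from RefSeq (GRCm38.p6) and span 250 bases before to 50 after the annotated start. Capitals mark ACGTG on either strand, a form of the core that hypoxia-inducible factors bind. The palindrome CACGTG counts as a match on each strand. The form GCGTG was not searched for, and it stands unmarked in the Ldha and Ldhb promoters shown.
Ldha, chr7:46845554-46845853, plus strand, the promoter with more matches of 2 annotated: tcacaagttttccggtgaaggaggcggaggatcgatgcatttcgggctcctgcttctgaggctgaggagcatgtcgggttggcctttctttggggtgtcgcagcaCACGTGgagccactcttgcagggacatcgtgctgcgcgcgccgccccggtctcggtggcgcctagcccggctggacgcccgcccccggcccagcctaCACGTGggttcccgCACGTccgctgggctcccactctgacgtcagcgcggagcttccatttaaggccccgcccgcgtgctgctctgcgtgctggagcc
Ldhb, chr6:142507908-142508207, minus strand: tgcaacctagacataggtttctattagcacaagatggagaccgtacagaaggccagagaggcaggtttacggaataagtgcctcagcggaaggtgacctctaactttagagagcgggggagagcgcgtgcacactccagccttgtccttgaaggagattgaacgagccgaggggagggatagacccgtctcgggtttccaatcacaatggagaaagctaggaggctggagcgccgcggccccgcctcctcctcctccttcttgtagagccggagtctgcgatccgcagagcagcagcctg
Pgk1, chrX:106186850-106187149, plus strand: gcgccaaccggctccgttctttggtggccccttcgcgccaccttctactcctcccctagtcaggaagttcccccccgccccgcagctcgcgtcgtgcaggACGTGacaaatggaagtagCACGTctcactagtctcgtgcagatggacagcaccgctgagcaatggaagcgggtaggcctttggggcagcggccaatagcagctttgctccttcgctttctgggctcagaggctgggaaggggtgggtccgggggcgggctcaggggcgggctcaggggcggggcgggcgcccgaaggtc
Hk2, chr6:82774405-82774704, minus strand: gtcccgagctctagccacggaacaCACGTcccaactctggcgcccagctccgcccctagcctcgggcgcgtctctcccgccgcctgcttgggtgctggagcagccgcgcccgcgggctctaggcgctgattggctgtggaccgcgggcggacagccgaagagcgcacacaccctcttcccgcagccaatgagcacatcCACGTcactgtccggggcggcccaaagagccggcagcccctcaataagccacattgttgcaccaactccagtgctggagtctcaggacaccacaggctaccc

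The Ldha promoter shown held 5 matches of ACGTG, with each palindrome counted on both strands, those of Pgk1 and Hk2 2 each and that of Ldhb 0. Pgk1 and Hk2 were picked by name, whereas Gpi1, Pfkl, Pfkp, Tpi1 and Eno1 held 0 in every annotated promoter. The other annotated promoter of Ldha held 0, as that of Ldhb did, so the contrast depends on the promoter shown. Among the members 40 of 41 matched the RefSeq table (all but Idh3a). The motif was in 38.3% of their 60 promoters, in 24.5% of 10637 promoters of tested genes and in 19.6% of all 32851 promoters. By pathway it was in 11 of 24 promoters of glycolysis, 7 of 15 of the TCA cycle, 2 of 8 of pyruvate and lactate metabolism and 1 of 6 of the pentose phosphate pathway. By gene, 9 of 14 glycolytic genes and 2 of 10 TCA genes had a match in at least 1 promoter. The same held for 16 of 40 members, 28.4% of 8278 tested genes and 21.8% of all 27025 genes. The glycolytic share thus lay above both backgrounds and the TCA share below both. Ogdh alone has 6 of the 15 TCA promoters, each with at least 1 match, so the TCA count by promoter rests mainly on that gene. A match describes these letters only. Because GCGTG was not counted, 0 matches of ACGTG, as for Ldhb, does not mean that the core is absent.

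**Figure D3:**
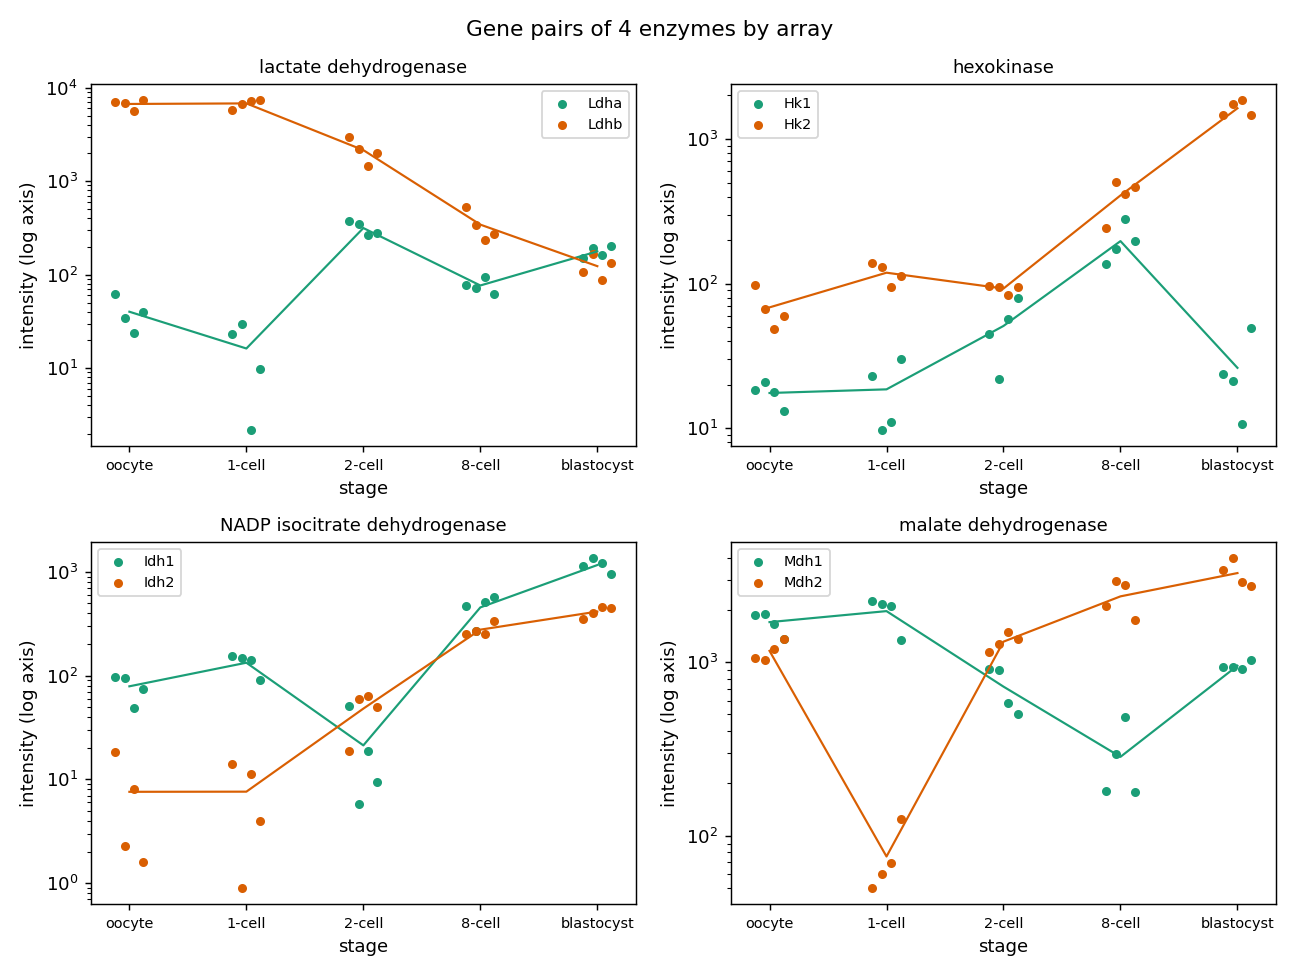
Points are intensities on single arrays (log axis) for the genes of 4 enzyme pairs over 5 stages, and lines join the stage means; each gene has its own probe set, so levels are read within a gene and not between genes. Ldhb falls from a mean of 6692 ± 699.8 to 123 ± 34.9, Hk2 rises to 1630.3 ± 206, Hk1 peaks at the 8-cell stage (197 ± 61.2), and Mdh2 drops at the 1-cell stage to 75.8 ± 33.0 (means ± SD, n = 4).

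The pyruvate dehydrogenase complex was read by the genes of its E1 alpha and beta subunits, Pdha1 and Pdhb, and of its acetyltransferase Dlat. Pdhb climbed up to the 8-cell stage: 511, 482, 408 and 529 in the oocyte, 801, 975, 948 and 861 at the 1-cell stage and 1423, 1175, 1530.2 and 1344 at the 2-cell stage. It was 2062, 1801, 2122 and 2296 at the 8-cell stage and 2236, 1841, 2897 and 2106 in the blastocyst. The values of neighbouring stages did not overlap up to the 8-cell stage, with rises of 0.88 ± 0.15, 0.60 ± 0.15 and 0.59 ± 0.15 on the log2 scale (adjusted p = 4.89e-05, 0.00176 and 0.00182). The rise into the 1-cell stage turned to -0.11 when arrays were scaled to the hybridization controls, and that into the 8-cell stage was not called then (0.05, adjusted p = 0.915). The dimmer probe set of Pdhb was not called at the first and second of these steps (adjusted p = 0.481 and 0.237).

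Pdha1 was at 558, 513, 495 and 704 in the oocyte and at 472, 431, 693 and 535 in the 1-cell embryo. It was lower at the 2-cell stage, at 382, 380.3, 314 and 384, and about 5.08 times that mean at the 8-cell stage, at 1535, 1739.6, 1826 and 2309.9. The blastocyst arrays, at 1544, 1622, 2144 and 1438, overlapped those of the 8-cell stage. The rise from the 2-cell to the 8-cell stage was 2.29 ± 0.17 (adjusted p = 1.17e-11). The preceding fall of 0.51 ± 0.17 (adjusted p = 0.0167) was not called without 1-cell replicate 3 (adjusted p = 0.0911) or without 2-cell replicate 3 (adjusted p = 0.0582), nor under control scaling (adjusted p = 0.476). A second probe set of Pdha1 rose at that step (1.49 ± 0.20, adjusted p = 3.7e-07), so the direction of Pdha1 there depends on the probe set.

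Dlat fell by 1.69 ± 0.24 from the 1-cell to the 2-cell stage (adjusted p = 8.32e-07), from 183, 196, 268 and 259.6 to 112, 41.1, 41.6 and 67.7. It rose again by 1.31 ± 0.24 into the blastocyst (adjusted p = 6.2e-05), from 76.3, 60.5, 105 and 74.8 to 178, 182, 272 and 221. The dimmest of its 3 probe sets was called at neither step (-0.26 and 0.33, adjusted p = 0.360 and 0.210). Pdk1 encodes a kinase that inactivates pyruvate dehydrogenase. It had means of 88.1 ± 17.9 (SD, n = 4) in the oocyte, 202 ± 80.5 and 201 ± 77.4 at the 1-cell and 2-cell stages, and 60.8 ± 6.72 at the 8-cell stage. The fall into the 8-cell stage was 1.45 ± 0.33 (adjusted p = 0.000528) with no overlap between the stages. The earlier rise of 1.02 ± 0.33 (adjusted p = 0.0176) was not called without oocyte replicate 2, 1-cell replicate 2 or 1-cell replicate 3 (adjusted p = 0.0541, 0.0696 and 0.0690), nor under control scaling (0.12, adjusted p = 0.809).

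Hexokinase phosphorylates glucose at the entry to glycolysis. Hk2 rose at the last steps of the series, with 98.6, 67.3, 48.7 and 59.9 in the oocyte, 140.1, 129.5, 94.3 and 113 at the 1-cell stage and 96.4, 95.1, 83.8 and 95.2 at the 2-cell stage. It then measured 243, 502, 418 and 468 at the 8-cell stage and 1456, 1753, 1857 and 1456 in the blastocyst. Both of these stages lay above all earlier arrays, and the blastocyst mean was 23.8 times the oocyte mean. The rises were 1.95 ± 0.21 into the 8-cell stage (adjusted p = 7.01e-09) and 2.01 ± 0.21 into the blastocyst (adjusted p = 1.16e-08). The smaller rise from the oocyte to the 1-cell stage (0.72 ± 0.21, adjusted p = 0.00772) turned to -0.16 under scaling to the hybridization controls.

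Hk1 was highest at the 8-cell stage alone. Its arrays held 18.4, 20.9, 17.9 and 13.1 in the oocyte, 23.2, 9.8, 11.1 and 30.4 at the 1-cell stage and 44.8, 21.8, 57.4 and 80.3 at the 2-cell stage. The 8-cell arrays, at 136, 174, 281 and 196, exceeded every other array, and the blastocyst arrays were back at 23.9, 21.2, 10.7 and 49.1. Hk1 rose by 1.77 ± 0.31 into the 8-cell stage (adjusted p = 2.56e-05) and fell by 2.49 ± 0.31 into the blastocyst (adjusted p = 3.01e-07). The rise into the 2-cell stage (1.00 ± 0.31, adjusted p = 0.00934) was not called without 2-cell replicate 4 (adjusted p = 0.0535). Hk1 was above the filter on 8 of 20 arrays only.

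Phosphofructokinase commits sugar to glycolysis and has a liver, a muscle and a platelet isoform, Pfkl, Pfkm and Pfkp. Pfkp fell into the 8-cell stage: 145, 171, 186 and 174 in the oocyte, 115, 118, 122 and 198 at the 1-cell stage, 165, 161, 90.1 and 116 at the 2-cell stage and 11.8, 7, 39.2 and 45.8 at the 8-cell stage. The 8-cell values lay below all earlier ones (a fall of 2.05 ± 0.31, adjusted p = 2.52e-06), and the blastocyst values, 41, 49, 57.2 and 116, overlapped them despite a rise of 1.10 ± 0.31 (adjusted p = 0.00513). The brighter probe set of Pfkl stayed between 101 and 241 on all arrays, at 136, 163, 155 and 111 in the oocyte, 144, 162, 158 and 138 at the 1-cell and 126, 177, 134 and 167 at the 2-cell stage. Its later values were 162, 146, 104 and 101 and 154, 178, 186 and 241. It rose into the blastocyst by 0.53 ± 0.19 (adjusted p = 0.0239), a call lost without 8-cell replicate 3, 8-cell replicate 4 or blastocyst replicate 4 (adjusted p = 0.0795, 0.0720 and 0.0874). The dimmer probe set of Pfkl moved more: 57.1, 58.6, 77.9 and 41.8 at the 1-cell stage, 81.7, 85.8, 135 and 115 at the 2-cell stage, 36.9, 20.8, 7.5 and 47.1 at the 8-cell stage and 254, 220.4, 309 and 394 in the blastocyst. It rose, fell and rose again without overlap at these steps (0.71 ± 0.28, adjusted p = 0.0363, then -1.63 ± 0.28, adjusted p = 1.52e-05, then 3.02 ± 0.28, adjusted p = 1.46e-09), so what Pfkl did depends on the probe set. Pfkm was not called at any consecutive transition, and its oocyte arrays (119.6 to 236) overlapped its blastocyst arrays (91.2 to 149) although the fall over the whole course was called (0.70 ± 0.23, adjusted p = 0.00864).

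Aldolase splits the 6-carbon sugar, and its A form rose late. Aldoa intensities were 242, 259.5, 353 and 511 in the oocyte, 132, 199.7, 311 and 272 at the 1-cell and 198, 204, 253 and 200.2 at the 2-cell stage. They were 362, 320.4, 435 and 436 at the 8-cell stage and 1327, 1196, 1877 and 1496 in the blastocyst. The 8-cell arrays were above those of the 2-cell stage (0.82 ± 0.23, adjusted p = 0.00376; 0.29 and not called under control scaling), and the blastocyst arrays were above all others (1.88 ± 0.23, adjusted p = 1.91e-07). Aldoc, the brain form, was near the filter with 41.8, 10.8, 8.8 and 15.2 in the oocyte, 36.6, 6.1, 22 and 38.5 at the 1-cell and 37, 52.5, 32.9 and 57.8 at the 2-cell stage. Its later values were 92.8, 49.4, 12.6 and 51.8 and 37, 40.1, 8.5 and 52.5, and no transition was called.

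Tpi1, which interconverts the triose phosphates, fell by 0.93 ± 0.20 from 298, 341, 334 and 413 at the 1-cell stage to 201, 172, 153 and 178 at the 2-cell stage (adjusted p = 0.000372), a call lost under control scaling (adjusted p = 0.0775). It rose by 2.48 ± 0.20 from 129.8, 155, 133 and 90.8 at the 8-cell stage to 533, 601, 891 and 1135 in the blastocyst (adjusted p = 1.7e-10), without overlap. Pgk1, which makes the first ATP of the pathway, went up and down: 1368, 1258, 1687 and 1084 at the 1-cell stage, 2366, 2372, 2056 and 1836 at the 2-cell stage, 464, 598, 646 and 675 at the 8-cell stage and 2674, 3401, 3098 and 1851 in the blastocyst. Each of these stages was separate from the next, with changes of 0.68 ± 0.20, -1.84 ± 0.20 and 2.16 ± 0.20 on the log2 scale (adjusted p = 0.00558, 9.23e-09 and 1.45e-09). All 3 probe sets of Pgk1 carried these calls, and the first rise was not called with arrays centred on their median (0.57, adjusted p = 0.0713).

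Gapdh, which oxidises glyceraldehyde 3-phosphate, was measured at the 3' end, the middle and the 5' end of its transcript by control probe sets. The 3' probe set gave 600, 305, 493 and 599.8 in the oocyte, 508, 717, 855 and 780 at the 1-cell stage and 952, 670.4, 498 and 650.4 at the 2-cell stage. It gave 123, 169, 103 and 79 at the 8-cell stage and 2100.4, 2055, 2223 and 3116 in the blastocyst. The 8-cell arrays were thus below all others and the blastocyst arrays above all others. The middle probe set had the same lowest and highest stages by mean, with 104 to 268 at the 8-cell stage and 946 to 1899 in the blastocyst. The 5' probe set gave 56.2 to 132 at the 8-cell stage, overlapping the 91.5 to 115 of the oocyte, and 268 to 888 in the blastocyst. These are levels only, with no test.

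The ratio of the 3' to the 5' probe set of Gapdh, a common gauge of how far reverse transcription and amplification reached, was 1.28 ± 0.468 (SD, n = 4) at the 8-cell stage and 4.70 to 5.81 as a mean at the other stages. The same ratio for Actb was 3.67 ± 0.234 at the 8-cell stage, 1.99 ± 0.325 in the blastocyst and 4.24 to 4.74 at the earlier stages. Gapdh at its 3' end, Pkm, Pgk1, Fh1 and the brightest probe set of Cs were all lowest at the 8-cell stage. The part of these ratios in their values was not tested.

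**Figure D4:**
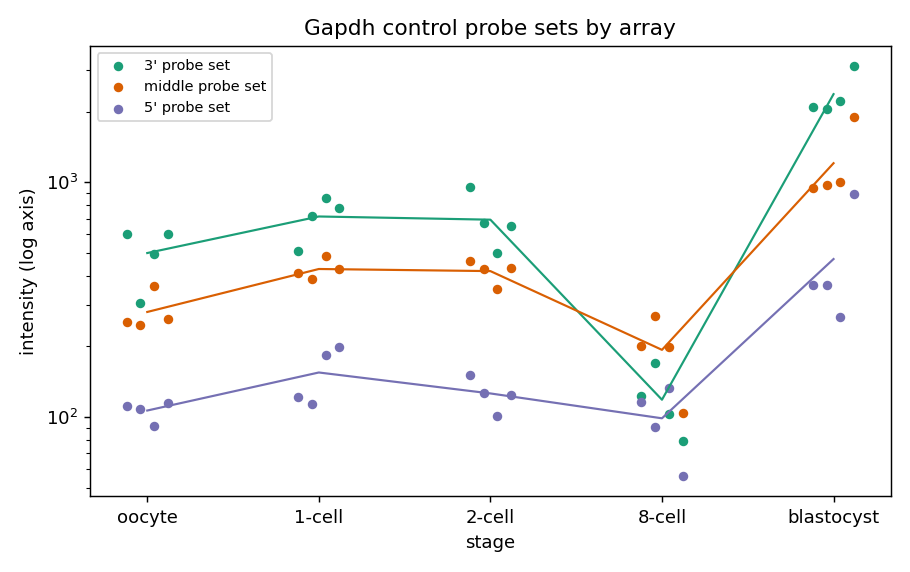
Points are intensities of the 3', middle and 5' Gapdh control probe sets on the 20 arrays (log axis) over 5 stages, and lines join the stage means. The 3' values drop to 79 to 169 at the 8-cell stage and reach 2055 to 3116 in the blastocyst, while the 5' values change less.

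Pgam1, the phosphoglycerate mutase that follows Pgk1, rose at 2 consecutive steps. It measured 84, 104, 72.6 and 52.1 at the 1-cell stage and 283, 378, 356 and 331 at the 2-cell stage, a rise of 1.98 ± 0.19 (adjusted p = 9.44e-10). It rose again to 656, 664, 808 and 673 at the 8-cell stage (1.03 ± 0.19, adjusted p = 4.02e-05). The blastocyst values of 452, 416, 420.3 and 538 were all lower than these (-0.61 ± 0.19, adjusted p = 0.0105). When arrays were scaled to the hybridization controls, that last change was 0.45 and the rise into the 8-cell stage was not called (0.49, adjusted p = 0.204). The fall was also not called with arrays centred on their median (adjusted p = 0.124).

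Pkm encodes the muscle-type pyruvate kinase, which makes pyruvate and ATP at the end of glycolysis. It fell from 609, 531, 625 and 683 in the oocyte to 110.1, 112, 272 and 363 in the 1-cell embryo, by 1.63 ± 0.31 (adjusted p = 0.00015). The 2-cell arrays held 200.5, 180.3, 117 and 196 and the 8-cell arrays only 5.7, 16.4, 31.8 and 25.3, a further fall of 2.59 ± 0.31 (adjusted p = 6.22e-08). All 4 of these 8-cell values were under the filter, and the blastocyst arrays rose to 303, 210.4, 451 and 372, by 3.47 ± 0.31 (adjusted p = 9.39e-10). With the larger added constant of 48.6 that rise was 2.46. The blastocyst arrays remained below those of the oocyte (-0.89 ± 0.31, adjusted p = 0.0146), but not at the threshold without blastocyst replicate 2 (adjusted p = 0.0702).

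In the TCA cycle the sharpest movement was that of Mdh2, the mitochondrial malate dehydrogenase that regenerates oxaloacetate. Its intensities were 1065, 1031, 1201 and 1359 in the oocyte and 49.9, 60, 69.4 and 124 in the 1-cell embryo, and they were back at 1143, 1269, 1488 and 1362 in the 2-cell embryo. The 1-cell mean was 0.0651 times the oocyte mean, and no 1-cell array came near either neighbour. The fall was 3.80 ± 0.20 (adjusted p = 4.8e-14) and the following rise 3.98 ± 0.20 (adjusted p = 3.09e-15). Later values were 2101, 2963, 2779 and 1761 at the 8-cell stage and 3422, 3978, 2925 and 2763 in the blastocyst. The second probe set of Mdh2 also fell and rose again (-2.53 and 2.74 on the log2 scale).

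The NAD-linked isocitrate dehydrogenase is built of the catalytic alpha subunit Idh3a and the regulatory subunits Idh3b and Idh3g. Idh3b showed the same dip as Mdh2: 132, 118, 95.1 and 89.4 in the oocyte, 13.1, 26, 38 and 17.6 at the 1-cell stage and 139, 224, 190.3 and 168 at the 2-cell stage. It then rose to 638, 535, 624 and 711 and to 1263, 1465, 1559.5 and 1234 in the blastocyst. Idh3g was at 296, 258, 297 and 343 in the oocyte, 70.5, 59.4, 44.3 and 80.7 at the 1-cell stage and 309, 357, 449 and 480.3 at the 2-cell stage. Its later values were 1385, 1046, 1033 and 1026 at the 8-cell stage and 1273, 1401, 1329 and 1580.2 in the blastocyst. For both genes the 1-cell arrays were below all others, with falls of 1.79 ± 0.20 and 2.05 ± 0.18 (adjusted p = 4.94e-08 and 4.28e-10) and rises of 2.46 ± 0.20 and 2.44 ± 0.18 (adjusted p = 3.96e-11 and 3.81e-12). Both probe sets of each gene carried these calls. The 1-cell mean of Idh3b, 23.7, was under the filter, so the sizes of its fall and rise depend on the added constant.

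Idh3a had no such dip. It was at 840.1, 844, 819.5 and 925 in the oocyte and declined to 309.7, 410, 528 and 754 at the 1-cell stage (-0.83 ± 0.22, adjusted p = 0.00421). It was at 409.8, 320.1, 322 and 321 at the 2-cell stage and 253, 229, 365 and 356 at the 8-cell stage, with neither step called. The blastocyst arrays rose to 1394, 1322, 2402 and 2004, by 2.50 ± 0.22 (adjusted p = 7.39e-10). The dimmest of the 3 probe sets was not called there (0.53, adjusted p = 0.0819). A dimmer probe set of Idh3a rose from the oocyte to the 1-cell stage (0.99 ± 0.28, adjusted p = 0.00723), against the fall of the brighter one.

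**Figure D5:**
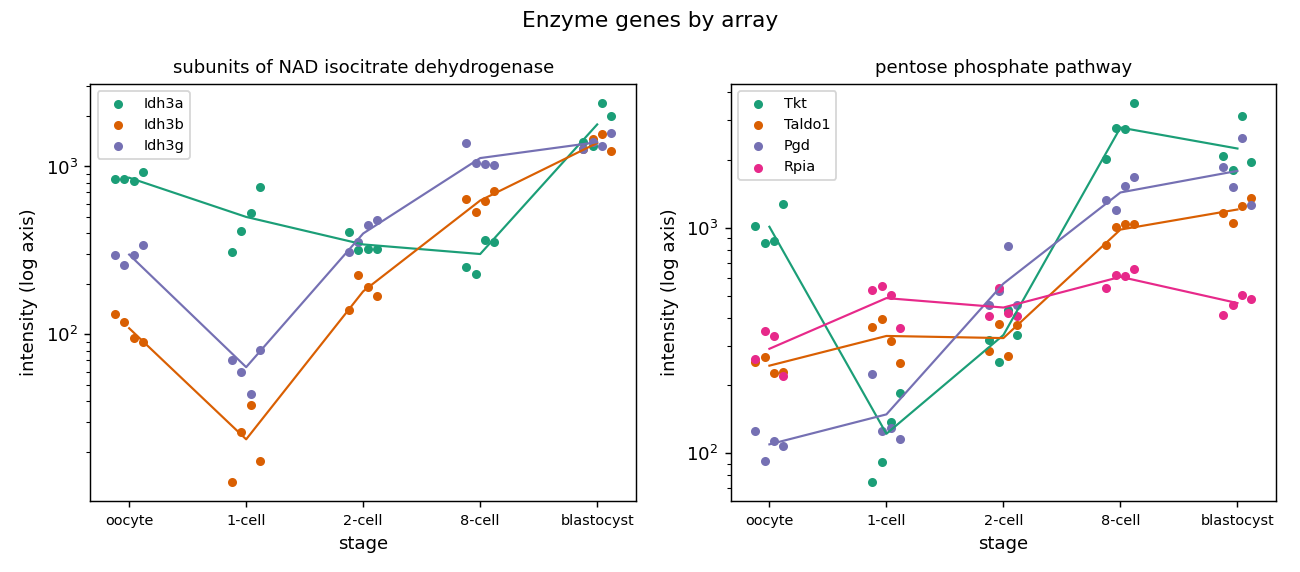
Points are intensities on single arrays (log axis) over 5 stages for the 3 subunit genes of NAD isocitrate dehydrogenase (left) and the 4 tested genes of the pentose phosphate pathway (right), and lines join the stage means. Idh3b, Idh3g and Tkt dip at the 1-cell stage to means of 23.7, 63.7 and 122, whereas Idh3a, Taldo1, Pgd and Rpia do not.

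By its brightest probe set citrate synthase, Cs, which opens the cycle, was high early and lowest at the 8-cell stage. Its arrays gave 1306, 1419, 1601 and 1755 in the oocyte, 3416, 2532, 2431 and 2402 at the 1-cell stage and 2040.5, 1701, 1641 and 1774 at the 2-cell stage. They gave 296, 388, 429 and 372 at the 8-cell stage and 1199.6, 1046, 1129.6 and 871 in the blastocyst. The fall into the 8-cell stage was 2.24 ± 0.16 (adjusted p = 3.23e-12) and the rise after it 1.49 ± 0.16 (adjusted p = 2.1e-08). The rise into the 1-cell stage (0.81 ± 0.16, adjusted p = 0.000201) turned to -0.18 under scaling to the hybridization controls. The 3 probe sets disagreed. The dimmest fell into the 1-cell stage (-0.56 ± 0.18, adjusted p = 0.0192) and rose into the 2-cell stage (1.51 ± 0.18, adjusted p = 8.76e-08), where the representative fell (-0.58 ± 0.16, adjusted p = 0.0036). The dimmest was not called into the 8-cell stage (-0.36, adjusted p = 0.107). It was lowest at the 1-cell stage (124 to 229) and highest in the blastocyst (557 to 797), with 300 to 476 at the 8-cell stage. From oocyte to blastocyst it was called higher (1.33), where the representative was called lower. The fall of the representative into the 2-cell stage was lost under control scaling (adjusted p = 0.322).

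Idh2, the mitochondrial NADP-linked isocitrate dehydrogenase, was low early, with 18.4, 2.3, 8.1 and 1.6 in the oocyte and 14.2, 0.9, 11.4 and 4 at the 1-cell stage. It was 18.9, 59.6, 63.7 and 50.4 at the 2-cell stage, 251, 269, 252 and 338 at the 8-cell stage and 348, 399.7, 460.1 and 450.2 in the blastocyst. The rises into the 2-cell and 8-cell stages were 1.58 ± 0.28 (adjusted p = 3.53e-05) and 2.34 ± 0.28 (adjusted p = 8.52e-08). All oocyte and 1-cell values were under the filter, so the size of the rise into the 2-cell stage depends on the added constant. No later stage overlapped an earlier one from the 1-cell stage on. The last step, 0.56 ± 0.28, was not called (adjusted p = 0.108).

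The oxoglutarate dehydrogenase genes Ogdh and Dlst were called at the ends of the series only: Dlst at the first and last transitions and Ogdh at the last. Dlst means were 357 ± 49.0 (SD, n = 4), 192 ± 17.8, 149 ± 51.3, 108 ± 27.5 and 325 ± 77.7 from oocyte to blastocyst. Ogdh means were 44.8 ± 11.0, 66.6 ± 17.0, 57.0 ± 5.99, 46.3 ± 4.33 and 106 ± 19.6. Dlst fell into the 1-cell stage by 0.85 ± 0.21 (adjusted p = 0.00268). Both rose into the blastocyst, Dlst by 1.48 ± 0.21 (adjusted p = 2.49e-06) and Ogdh by 1.00 ± 0.21 (adjusted p = 0.000339), with no overlap with the 8-cell arrays. The dimmer probe set of Dlst was called at neither of these steps (-0.08 and -0.21).

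Succinyl-CoA synthetase pairs the alpha subunit Suclg1 with a beta subunit such as that of Sucla2. Suclg1 was lowest at the 2-cell stage: 183, 182, 249 and 148 at the 1-cell stage, 53, 54.8, 62.6 and 80 at the 2-cell stage, 399.5, 438, 458 and 482 at the 8-cell stage and 1687, 2459, 1719 and 1786 in the blastocyst. It fell by 1.43 ± 0.19 (adjusted p = 2.65e-07), then rose by 2.62 ± 0.19 (adjusted p = 3.21e-12) and by 2.06 ± 0.19 (adjusted p = 1.1e-09). Sucla2 was likewise lowest at the 2-cell stage, with means of 1898 ± 258 (SD, n = 4) in the oocyte, 827 ± 74.2, 464 ± 92.0 and 1148 ± 271 in the cleavage stages and 1866 ± 227 in the blastocyst. It fell by 1.18 ± 0.17 and then by 0.83 ± 0.17 (adjusted p = 4.4e-06 and 0.000201), and rose by 1.28 ± 0.17 (adjusted p = 4.53e-07). The fall of Sucla2 into the 2-cell stage was not called under control scaling (adjusted p = 0.0807). The small fall of Suclg1 from the oocyte to the 1-cell stage (-0.51 ± 0.19, adjusted p = 0.0354) was lost without any 1 of 5 arrays (oocyte replicates 2 and 4 and 1-cell replicates 1, 2 and 4, adjusted p from 0.0678 to 0.141).

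Fh1, fumarase, was high in the oocyte at 1588, 1568, 1206 and 2208 and in the 1-cell embryo at 1201, 1108, 1324 and 1484. It dropped to 507, 379, 236 and 298 at the 2-cell stage and to 165, 148, 184 and 109.8 at the 8-cell stage, and stood at 972, 1224, 1228 and 1062 in the blastocyst. The falls were 1.86 ± 0.20 (adjusted p = 1.47e-08) and 1.13 ± 0.20 (adjusted p = 3.74e-05). The rise into the blastocyst, 2.81 ± 0.20 (adjusted p = 2.21e-11), came without overlap between the stages.

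Of the side-reaction enzymes, Aco1 is the cytosolic aconitase that also acts as an iron-regulatory protein, Mdh1 the cytosolic malate dehydrogenase of the malate-aspartate shuttle and Me1 the cytosolic malic enzyme, which makes NADPH. All 3 fell into the 8-cell stage and rose into the blastocyst. Mdh1 was at 1887, 1898, 1669 and 1366 in the oocyte, 2262, 2166, 2126 and 1341 at the 1-cell and 914, 897, 581 and 504 at the 2-cell stage. It was at 181, 297, 483 and 179 at the 8-cell stage and 934, 936, 919 and 1033 in the blastocyst. Its falls of 1.45 ± 0.24 and 1.38 ± 0.24 (adjusted p = 1.34e-05 and 2.63e-05) and its rise of 1.82 ± 0.24 (adjusted p = 8.62e-07) came without overlap between neighbouring stages. The dimmest of the 4 probe sets of Mdh1 rose into the 8-cell stage instead (1.12 ± 0.37, adjusted p = 0.0124) and was not called into the blastocyst (-0.76).

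Me1 intensities were 1697, 1794, 2569.5 and 2671 at the 1-cell stage, 1440.5, 1157, 720.2 and 803 at the 2-cell stage and 244, 239.9, 261 and 185 at the 8-cell stage. The fall into the 8-cell stage was 2.05 ± 0.19 (adjusted p = 9.49e-10), and the blastocyst arrays rose to 406, 402, 501 and 383 (0.83 ± 0.19, adjusted p = 0.00109). Its rise from the oocyte to the 1-cell stage (0.63 ± 0.19, adjusted p = 0.0128) was not called without 1-cell replicate 3 (adjusted p = 0.0519) or 1-cell replicate 4 (adjusted p = 0.0504), and turned to -0.36 under scaling to the hybridization controls. Aco1 fell from 808, 983, 1085 and 1078 in the oocyte to 355, 319, 400.3 and 626 at the 1-cell stage (-1.23 ± 0.22, adjusted p = 7.35e-05). It measured 663, 436, 355 and 501 at the 2-cell stage, 94.4, 89.3, 191 and 140.1 at the 8-cell stage and 634, 619.7, 555 and 686 in the blastocyst, with a fall of 1.85 ± 0.22 (adjusted p = 5.79e-08) and a rise of 2.23 ± 0.22 (adjusted p = 5.89e-09).

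Idh1, the cytosolic NADP-linked isocitrate dehydrogenase, went the other way at the 8-cell stage. It was at 97.2, 95.7, 48.7 and 74.3 in the oocyte, 153, 147, 142 and 91.8 at the 1-cell stage and 51.2, 5.8, 18.7 and 9.5 at the 2-cell stage, where 3 of 4 arrays were under the filter. It was at 468, 269, 514 and 568 at the 8-cell stage and 1139.5, 1350.4, 1209 and 958 in the blastocyst. The fall of 2.28 ± 0.29 (adjusted p = 2.11e-07) was followed by a rise of 3.93 ± 0.29 (adjusted p = 8.19e-12). With the larger added constant of 48.6 that rise was 2.85. The dimmer probe set of Idh1 was called the same way at both steps, with smaller changes (-0.92 and 1.71). Pck2, the mitochondrial phosphoenolpyruvate carboxykinase, was read by 2 probe sets that exceeded the filter on 3 arrays and 1 array. The brighter gave 2.1 to 5.6 in the oocyte and 31.6, 34.9, 51.9 and 176 in the blastocyst.

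The pentose phosphate pathway was measured by Pgd, which yields NADPH, by the ribose-phosphate isomerase Rpia, and by the transketolase Tkt and the transaldolase Taldo1 of its non-oxidative arm. Tkt dipped at the 1-cell stage: 1024, 860.2, 878 and 1282 in the oocyte, 74.2, 91.8, 137 and 185 at the 1-cell stage and 317, 254, 434 and 334 at the 2-cell stage. It was at 2013, 2782, 2752 and 3594 at the 8-cell stage and 2088, 1811, 3127 and 1968 in the blastocyst. The fall was 2.99 ± 0.23 (adjusted p = 6.49e-11), and the rises were 1.42 ± 0.23 (adjusted p = 8.67e-06) and 3.01 ± 0.23 (adjusted p = 1.57e-11). The other probe set of Tkt was called the same way at these 3 transitions.

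Pgd rose at both middle steps, from 224, 126, 129 and 116 at the 1-cell stage to 454, 524, 833 and 453 and then to 1333, 1197, 1537 and 1675 at the 8-cell stage. These stages did not overlap, and the rises were 1.84 ± 0.22 (adjusted p = 6.1e-08) and 1.36 ± 0.22 (adjusted p = 7.9e-06). Taldo1 rose at the later of these steps only, by 1.57 ± 0.16 (adjusted p = 3.75e-09), from 285, 373, 269.5 and 370 to 843, 1013, 1036 and 1038. Its step from the 1-cell to the 2-cell stage was -0.03 ± 0.16 (adjusted p = 0.917). Rpia varied least of the 4 genes, from a mean of 291 ± 60.6 (SD, n = 4) in the oocyte to 606 ± 48.1 at the 8-cell stage. It rose from 262, 349, 332 and 219 to 533, 554, 504 and 360.1 at the 1-cell stage (0.73 ± 0.17, adjusted p = 0.00138), a change of -0.25 under scaling to the hybridization controls. In the blastocyst the 4 genes stood at 1789 ± 543 for Pgd, 1206 ± 129 for Taldo1, 2249 ± 597 for Tkt and 464 ± 40.1 for Rpia, each on its own probe set.

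Isoenzymes and subunits of 1 enzyme were compared directly, since each array gives the difference of the log2 values of both genes. In 8 pairs and 4 transitions, 32 tests in all, the difference changed without overlap between the stages in 19, each with the smallest two-sided exact permutation p that 4 arrays against 4 allow (0.0286, adjusted p = 0.0481). That call rests on the number of tests that reach this p. No such count was made over other gene pairs of the array, so it describes these pairs and does not set them apart from unrelated genes. Quantile normalization left 17 of them and an adjusted p of 0.0538, and scaling to the hybridization controls 18 and 0.0508, so neither setting kept a call, although all 32 differences kept their sign under both. With the dimmest probe set of each gene 14 tests reached the smallest p (adjusted p = 0.0653), and 5 of the 32 differences turned their sign.

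The log2 changes of Mdh1 and Mdh2 differed by 3.99 into the 1-cell stage and by -5.43 into the 2-cell stage (Mdh1 minus Mdh2). At the next steps they differed by -2.22 and 1.36, which turned to 0.45 and -1.40 with the dimmest probe sets. For Ldha minus Ldhb the difference was 5.33 into the 2-cell stage and 2.46 into the blastocyst. It was -4.50 for Hk1 minus Hk2 into the blastocyst, and -0.18 at the step before (exact p = 0.657), where both genes rose. For Idh1 minus Idh2 it was -3.86 into the 2-cell stage, and 1.60 into the 8-cell stage (exact p = 0.143), where the dimmest probe sets gave -0.62.

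Subunits of the same complex also differed. The change of Idh3a minus that of Idh3g was 1.22, -2.90, -1.68 and 2.18 over the 4 transitions, each at the smallest p. The last of these was 0.013 with the dimmest probe sets (exact p = 1). For Pdha1 minus Pdhb it was -0.98, -1.11 and 1.70 up to the 8-cell stage, and -0.25 into the blastocyst (exact p = 0.114). The step into the 2-cell stage turned to 1.10 with the dimmest probe sets. Pfkl minus Pfkp reached the smallest p into the 8-cell stage only (1.82), and Aldoa minus Aldoc into the blastocyst only (2.28). With the dimmest probe sets Pfkl minus Pfkp was 0.42 into the 8-cell stage (exact p = 0.543) and turned from -0.57 to 1.92 into the blastocyst.

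A wider list of 52 other genes of the same pathways was read for comparison, of which 37 had a probe set and 31 were tested. From the 8-cell stage to the blastocyst 14 of these rose and 8 fell (median 0.46), beside the 20% and 26.4% of all genes. Among them 4 of the 5 tested TCA genes and all 4 tested side-reaction genes rose. The further glycolytic genes differed from the members: of 13 tested, 3 rose and 5 fell (median 0.03). Of 6 further pyruvate and lactate genes 1 rose and 2 fell. Of 3 further pentose phosphate genes 2 rose and 1 fell, whereas no pentose phosphate member was called. Into the 1-cell stage 6 rose and 9 fell, beside 15.2% and 16.6% of all genes. Into the 2-cell stage 6 rose and 9 fell, beside 22.0% and 22.7%, and into the 8-cell stage 5 rose and 10 fell, beside 22.2% and 25.7%. At the step into the 8-cell stage 0 of the 3 further pentose phosphate genes rose and 1 fell, whereas all 4 tested members of that pathway rose. Fbp2, a fructose bisphosphatase that runs the phosphofructokinase step backwards, rose into the 8-cell stage by 5.13 ± 0.27 (adjusted p = 1.04e-14), from 10, 11.4, 28.1 and 8.8 to 703, 1004, 784 and 1139.7. Its 2-cell values were all under the filter, so the size of this rise depends on the added constant. Bpgm, the bisphosphoglycerate mutase, fell from 10404, 9343, 7538 and 7994 at the 1-cell stage to 1153, 1061, 745 and 1134 at the 2-cell stage and 52.1, 47.7, 38.7 and 56.2 at the 8-cell stage, changes of -3.10 ± 0.16 and -4.08 ± 0.16 (adjusted p = 5.85e-15 and 3.13e-17).

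The remaining named genes of this list moved in both directions. Ldhc, the testis-type lactate dehydrogenase, was at 255, 103, 90.3 and 111 in the oocyte, 12.2, 10.7, 27.8 and 11.5 at the 1-cell stage and 108, 137, 254 and 193 at the 2-cell stage, a fall of 2.38 ± 0.30 and a rise of 2.72 ± 0.30 (adjusted p = 4.73e-07 and 1.65e-08). Its 1-cell values were all under the filter, so the sizes of both changes depend on the added constant. Sdhd, a membrane anchor of succinate dehydrogenase, fell by 1.91 ± 0.30 into the 1-cell stage (adjusted p = 1.65e-05) and rose by 1.90 ± 0.30 into the blastocyst (adjusted p = 1.32e-05), where its other probe set was not called (0.42 ± 0.32, adjusted p = 0.295). Sdha, its flavoprotein, rose by 1.07 ± 0.20 into the 1-cell stage and fell by 2.01 ± 0.20 after it (adjusted p = 0.000163 and 3.67e-09), but its dimmer probe set was called at neither step (0.08 ± 0.19, adjusted p = 0.814, and -0.45 ± 0.19, adjusted p = 0.0609). Tktl1, a transketolase-like gene, rose by 2.35 ± 0.22 into the 2-cell stage (adjusted p = 6e-10) and fell by 2.67 ± 0.22 into the blastocyst (adjusted p = 1.71e-10), where Tkt was not called. Mpc1, a subunit of the mitochondrial pyruvate carrier, fell by 1.52 ± 0.16 into the blastocyst (adjusted p = 2.9e-08), from 956, 885, 768 and 603 to 327, 254, 197 and 316. Pdk3, another pyruvate dehydrogenase kinase, fell by 3.58 ± 0.24 into the 8-cell stage (adjusted p = 1.09e-12). Its 8-cell mean of 9.1 was under the filter, so the size of that fall depends on the added constant too. Named by the same rule were also Suclg2 (a rise of 0.93 ± 0.24 into the 1-cell stage, adjusted p = 0.00319), Sdhb (a rise of 1.03 ± 0.18 into the 8-cell stage, adjusted p = 2.98e-05) and Got1, the cytosolic aspartate aminotransferase (a rise of 2.14 ± 0.26 into the blastocyst, adjusted p = 2e-07).

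Most members had more than 1 probe set, 78 in all, of which 70 were tested. Of the 21 genes with several tested probe sets, all carried the same call in 14, 15, 17 and 15 genes at the 4 transitions in order. Opposite calls occurred for Cs and Idh3a into the 1-cell stage, Cs and Pdha1 into the 2-cell stage and Mdh1 into the 8-cell stage, and for no gene from the 8-cell stage into the blastocyst. From oocyte to blastocyst Cs carried opposite calls. The representative probe sets of Aldoa, Tpi1, Pgk1, Dlat, Pgd, Tkt, Aco1 and Mdh1 carry the suffix x_at, with which the manufacturer marks probes that may also bind other transcripts, and those of Idh3b and Idh1 the suffix s_at, which marks probes shared by related transcripts.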

How the data were processed

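Expression was measured on 20 MOE430A arrays, 4 for each of 5 stages taken from the sample titles. The deposited values are linear probe-set intensities scaled by the authors to a common level per array; the software behind them is not given in the sources used here. The number of arrays limits the precision. Probe sets were named through GEO's platform annotation: of 22626 besides the controls, 20380 carried 1 symbol, 691 several (not used for naming) and 1555 none. Of those with several, 3 name Gapdh or Hk1.

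Intensities were transformed as log2(intensity + 12.15) (the pooled median of 48.6 divided by 4); on this log2 scale the deposited intensity of a low gene gives an understated change. The filter kept 17208 probe sets that exceeded 32.9, the 40th percentile of all values, on 4 arrays or more. A model with a mean per stage used limma 3.58.1 (R 4.3.3, eBayes with an intensity trend), and two-sided p-values were adjusted by Benjamini-Hochberg over all kept probe sets, called under 0.05. Errors of log2 changes are standard errors and those of intensities SDs. A gene was represented by its brightest tested probe set (mean log2 value). Gene pairs were compared by an exact permutation test on the per-array difference, adjusted over 32 tests. The procedure was tested on simulated data.

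The members and lists were chosen with earlier results of these data known. All members could be named. Array values are given for the paired genes, for Gapdh, and per pathway for up to 2 risen and 2 fallen members at each transition, the largest called changes without overlap between the stages; the same rule over the other pathway genes gave those named. Promoters are RefSeq's (GRCm38.p6). Alternatives were other scalings, constants, filters, probe sets, variance models, the replicate block and each array left out.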

Additional observations from a re-analysis of the deposited data

Results flagged for a closer look

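On single arrays, 16 of the 180 groups of 4 values (36 genes, 5 stages) held an array whose gap to its nearest neighbour exceeded Dixon's critical share of the range. Chance alone flags about 1 in 20 groups. High values stood out for Cs on 1-cell replicate 1 (3415.5), Mdh1 on blastocyst replicate 4 (1032.6), Idh3a on 2-cell replicate 1 (409.8) and Pgd on 1-cell replicate 1 (224.1). The same held for Rpia on 2-cell replicate 2 (541.2), Idh3g on 8-cell replicate 1 (1384.9), Aldoa on 2-cell replicate 3 (253.1), Suclg1 on blastocyst replicate 2 (2459.1) and Dlat on oocyte replicate 4 (305). Pgam1 was high on oocyte replicate 3 (79.2) and on 8-cell replicate 3 (808.4), and Pfkp on 1-cell replicate 4 (198.2). Low values stood out for Mdh1 on 1-cell replicate 4 (1341), Pdha1 on 2-cell replicate 3 (313.7), Taldo1 on 8-cell replicate 1 (843.1) and Hk2 on 2-cell replicate 3 (83.8). The array of 2-cell replicate 3 held 3 of the 16, the most of any array.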

How the results depend on the processing

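Scaling to the spiked hybridization controls shifted the all-gene median by -0.83, 0.17, -0.43 and 0.86 (log2) at the 4 transitions in order and by -0.25 from oocyte to blastocyst. The share of called genes that were higher went from 47.8%, 49.2%, 46.3% and 43.1% to 0.386%, 62.2%, 19.8% and 95.6% at the 4 transitions. Centring on the array median moved the last transition by 0.22 (62.6% higher) and the 1-cell to 2-cell transition by -0.11, and quantile normalization moved the last one by 0.11. Scaled to the controls, members higher and lower were 0 and 21 into the 1-cell stage, 7 lower into the 2-cell stage and 1 lower into the blastocyst. A log2 change of at least 1 left 1 higher and 7 lower into the 1-cell stage, 7 lower into the 2-cell stage and 3 lower from oocyte to blastocyst. With the dimmest probe set of each gene 4 rose into the 1-cell stage. Pairs with unequal change numbered 0 under quantile normalization, control scaling, a constant of 3.04 and the dimmest probe set, against 19.

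Single genes turned under control scaling into the 1-cell stage: Pgk1 to -0.46, Ldhb -0.98, Cs -0.18, Pdhb -0.11, Mdh1 -0.81, Me1 -0.36, Rpia -0.25, Tpi1 -0.78, Hk2 -0.16 and Pfkl -0.84. Rpia turned to -0.090 into the 8-cell stage, and into the blastocyst Pdha1 turned to 0.94, Tkt to 0.76, Rpia to 0.68 and Pgam1 to 0.45. With the dimmest probe set Cs turned to -0.56 and Idh3a to 0.14 into the 1-cell stage, and Cs to 1.51, Pdha1 to 1.49 and Pfkl to 0.71 into the 2-cell stage. Mdh1 turned to 1.12 into the 8-cell stage and to -0.76 into the blastocyst, Dlst to -0.21 into the blastocyst, and Cs to 1.33 from oocyte to blastocyst. The cause was not tested.

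Leaving out each array in turn gave 5 to 9 members higher and 10 to 12 lower into the 1-cell stage, 10 to 11 and 10 to 12 into the 2-cell stage, 16 to 17 and 11 to 12 into the 8-cell stage and 20 to 22 and 3 into the blastocyst. It gave 20 to 21 and 8 to 10 from oocyte to blastocyst, and 33 to 34 genes differing among stages. The rise of Pgk1 into the 1-cell stage (adjusted p = 0.0417) was lost without oocyte replicate 2 (0.169) or 3 (0.123) and without 1-cell replicate 1 (0.0786), 2 (0.0600) or 3 (0.142).

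The titles number the arrays of each stage, but 40 same-numbered pairs of arrays deviated from their stage means with correlations of -0.160 to 0.178 (median 0.0159, 6 over 0.1), and 5 of 20 arrays correlated best with their own number, so the numbers were not taken to pair samples. With the replicate block 6 members rose and 12 fell into the 1-cell stage: Pgk1 was no longer called (adjusted p = 0.0512) and Aldoa was (adjusted p = 0.0192). The block changed no other call of a member, and 34 genes differed among stages. Dim probe sets limit the values of Aldoc, Hk1, Idh2 and Pck2 most.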
